A study of Mus musculus with 2 samples.

Results

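Some cells of an embryoid body carry almost none of the transcripts that mark dividing cells, and the cells described here were chosen for that feature. They are keratin-free cells of day 2 embryoid bodies with at most 1 unique molecular identifier (UMI, a count of 1 captured transcript) summed over 6 mitotic genes, Mki67, Top2a, Cenpf, Hmmr, Tpx2 and Ccnb1. Keratin-free means 0 UMIs of Krt8, Krt18 and Krt19, keratins of simple epithelia. A barcode was considered when it held 4000 UMIs or more from 500 genes or more, with no more than 10% of its UMIs from mitochondrial genes. In all, 1620 of 22852 keratin-free cells met the rule, out of 26628 kept cells and 29602 deposited barcodes. They are called low-mitotic cells below, and the remaining 21232 keratin-free cells are the other cells.

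The embryoid bodies, aggregates in which embryonic stem cells start to differentiate, came from the male mouse embryonic stem cell line J1. One library came from embryoid bodies that had received dTAG13 for 2 days, and the other from embryoid bodies that had received DMSO, the solvent, for the same time. Both were dissociated with trypsin. dTAG13 is a degrader that links any protein carrying an FKBP12(F36V) tag with a ubiquitin ligase, and the protein is then broken down. The labels do not name the tagged protein; the series title names Tex10, a subunit of a nuclear complex that works in ribosome maturation. There was 1 library per group, so neither the differences between libraries nor those between cells of a library have a replicate check, and no test was run. Intervals are at 95% and take in counting error alone.

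Cycling cells make their transcripts in waves. Genes for DNA replication are switched on by E2F factors when a cell commits to S phase, histone genes are transcribed while DNA is copied, and genes for the spindle and for chromosome segregation build up through G2 and peak in mitosis. Pluripotent mouse cells have a very short G1, so few of them are free of such transcripts at any moment. A cell with few mitotic transcripts may be in G1, in early S phase or out of the cycle, and the S phase and histone genes, which the rule did not use, bear on which of these it is.

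Low-mitotic cells made up 13.3% of the keratin-free cells of the dTAG13 library (1139 of 8554, exact binomial interval 12.6 to 14.1%) and 3.36% of those of the DMSO library (481 of 14298, 3.07 to 3.67%). The 6 genes that chose them were, by construction, near 0 in them and are given here only as a description. Top2a, which untangles DNA, was at 22.2 CPM (UMIs of a gene scaled to a common library total) in low-mitotic cells and at 567 CPM in other cells of the dTAG13 library. In the DMSO library it was at 60.1 CPM in low-mitotic cells and at 580 CPM in other cells. Mki67, the standard proliferation marker, was at 7.52 and 170 CPM with dTAG13 and at 12.5 and 124 CPM with DMSO, in the same order.

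**Figure D1:**
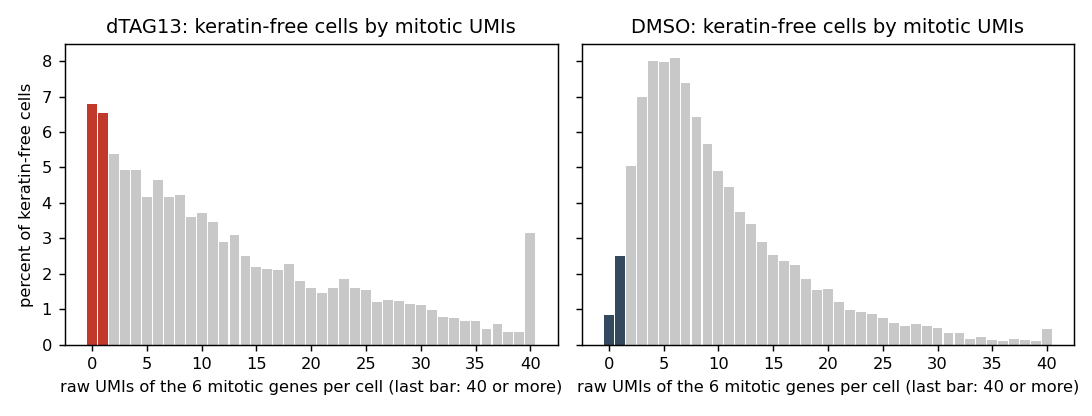
Keratin-free cells by the raw UMIs of the 6 mitotic genes in each cell (horizontal axis) as a percentage of the library's keratin-free cells (vertical axis), dTAG13 on the left and DMSO on the right. Coloured bars are the low-mitotic cells. With dTAG13 the tallest bar is at 0 UMIs (6.78%), whereas with DMSO it is at 6 UMIs (8.08%) and 0.853% of cells have 0.

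The shapes of the distributions differed at the low end. With dTAG13, 580 cells had 0 mitotic UMIs, 559 had 1 and 461 had 2, so that the largest class was the one at 0. With DMSO, 122 cells had 0, 359 had 1 and 721 had 2. Counts there formed a broad peak from 4 to 6 UMIs, with 1144, 1141 and 1155 cells. The cut between 1 and 2 UMIs therefore lies beside the peak with dTAG13 and in the lower tail of the peak with DMSO.

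A rule on raw UMIs takes in shallow cells more readily, and low-mitotic cells were shallower. Their median depth was 5244 UMIs against 7476 UMIs in other cells with dTAG13, and 4789 UMIs against 6275 UMIs with DMSO. Median mitochondrial shares were 1.79% against 2.03% with dTAG13 and 2.47% in both with DMSO. The gap in share between the libraries was present in every range of depth. Between 4000 and 5000 UMIs, low-mitotic cells were 43.9% of keratin-free cells with dTAG13 (460 of 1049, 40.8 to 46.9%) and 9.77% with DMSO (288 of 2947, 8.72 to 10.9%). Between 6000 and 8000 UMIs they were 7.43% with dTAG13 (6.50 to 8.46%) and 0.962% with DMSO (0.702 to 1.29%). At 10000 UMIs or more, 11 of 1473 keratin-free cells were low-mitotic with dTAG13 and 0 of 1371 with DMSO, where the exact upper limit is 0.269%.

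**Figure D2:**
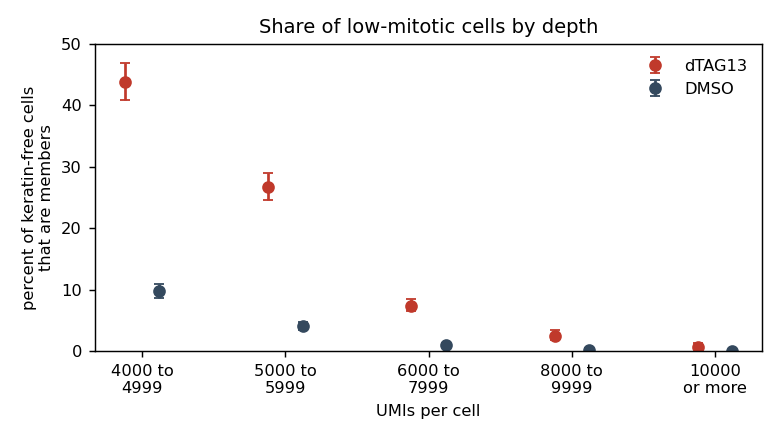
Share of keratin-free cells that are low-mitotic (vertical axis, percent) by UMIs per cell (horizontal axis), with exact 95% binomial intervals. The dTAG13 point lies above the DMSO point in all 5 ranges, and both fall with depth, to 0.747% with dTAG13 and 0 with DMSO at 10000 UMIs or more.

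When every cell was thinned to the same 4000 UMIs by random draw, the shares were 19.5% with dTAG13 (1820 of 9342) and 7.89% with DMSO (1180 of 14948). Thinning also raised the number of keratin-free cells, from 8554 with dTAG13 and from 14298 with DMSO. The thinned shares thus take in cells that held keratin UMIs before thinning. The size of the gap depended on the genes used. With at most 1 UMI over Aurka, Plk1, Cenpe, Kif11, Nusap1 and Ube2c instead, the shares were 16.6% with dTAG13 and 10.2% with DMSO. Among cells with keratin UMIs, which the rule leaves out, 19.1% had at most 1 mitotic UMI with dTAG13 (413 of 2166) and 2.48% with DMSO (40 of 1610).

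The remaining G2 and M phase genes belong to the same programme as the 6 genes of the rule. This list held 61 genes, of which 60 reached 5 CPM in low-mitotic or other cells and are called measured. With dTAG13, 55 of the 60 were at least 1.5-fold lower in low-mitotic cells and none was as much higher, where 5.59% of all measured genes were that much lower. The list summed to 2875 CPM in low-mitotic cells and 8223 CPM in other cells, and its median log2 ratio was -1.55, against 0.04 for all 8807 measured genes. With DMSO, 32 of 60 were at least 1.5-fold lower and none as much higher, where 7.01% of all measured genes were that much lower. The DMSO sums were 4422 CPM in low-mitotic cells and 6932 CPM in other cells, with a median of -0.65 against -0.08 for all 8416 measured genes. Because these genes share the programme of the rule, lower sums follow in part from the choice of cells and are no independent check. In single cells thinned to equal depth, 76.5% of dTAG13 low-mitotic cells lay below the 10th percentile of other cells for this list. The share was 9.17% among other dTAG13 cells. With DMSO the figures were 33.9% of low-mitotic cells and 7.52% of other cells. The list was thus lower as a sum in both libraries, but low in most single cells only with dTAG13.

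Mitotic kinases and spindle genes were among the lowest. Plk1, the polo kinase that starts mitosis, was at 2.88 CPM in low-mitotic cells and 81.3 CPM in other cells with dTAG13, a ratio of 0.0354 (interval 0.0210 to 0.0560). With DMSO it was at 34.6 CPM in low-mitotic cells and 77.9 CPM in other cells, a ratio of 0.444 (0.353 to 0.551). These are 18 UMIs over 1139 dTAG13 cells and 83 UMIs over 481 DMSO cells, and the share of free RNA in them was not measured. Aurka, the kinase of the spindle poles, had ratios of 0.111 (0.0860 to 0.141) with dTAG13 and 0.337 (0.252 to 0.441) with DMSO. Nusap1, which bundles spindle microtubules, had ratios of 0.136 with dTAG13 and 0.348 with DMSO. Ube2c, the ubiquitin-conjugating enzyme of the anaphase-promoting complex, was at 127 CPM in low-mitotic cells and 785 CPM in other cells with dTAG13, and at 328 and 707 CPM with DMSO.

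Prc1, which holds together the microtubules of the central spindle, and the kinesins Cenpe and Kif2c followed the same order, with dTAG13 ratios of 0.170, 0.189 and 0.143 and DMSO ratios of 0.459, 0.407 and 0.509. Cdk1, the kinase that drives cells into mitosis, was at 28.5 CPM in low-mitotic cells and 138 CPM in other cells with dTAG13, a ratio of 0.207 (0.177 to 0.240). With DMSO it was at 90.9 CPM in low-mitotic cells and 158 CPM in other cells, a ratio of 0.576 (0.501 to 0.658). Cyclin transcripts also differed between the libraries. Ccnb2, a partner of Cdk1, had a ratio of 0.407 (0.362 to 0.455) with dTAG13 and of 0.989 (0.868 to 1.12) with DMSO, and Ccna2, which acts in S phase and G2, had ratios of 0.187 and 0.730 in that order; both were chosen after their values were seen. Incenp and Kif23, needed for chromosome alignment and for cell division, were among the 10 lowest genes of the DMSO library, with ratios of 0.410 and 0.435.

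Promoters of G2 and M phase genes are known for the CHR, a short element bound by the MuvB complex. Promoters of 4 genes described above are shown around the CHR letters, to let the shared element be seen in genes that were low together. Sequences come from a RefSeq promoter table for GRCm38.p6 that runs from 250 bases before to 50 bases after each start, and are given on the strand of the gene, 5′ to 3′, with the CHR match, TTTGAA or its reverse complement TTCAAA, in capitals. Plk1 is from the plus strand of chr7:122159425-122159484, Ube2c from the plus strand of chr2:164769860-164769945, Prc1 from the plus strand of chr7:80294406-80294491 and Cdk1 from the minus strand of chr10:69352882-69352967.
Plk1: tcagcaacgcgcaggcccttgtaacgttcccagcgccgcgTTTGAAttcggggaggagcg
Ube2c: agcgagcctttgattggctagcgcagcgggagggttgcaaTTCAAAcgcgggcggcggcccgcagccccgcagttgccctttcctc
Prc1: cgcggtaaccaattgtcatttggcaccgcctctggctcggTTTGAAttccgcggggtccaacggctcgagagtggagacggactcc
Cdk1: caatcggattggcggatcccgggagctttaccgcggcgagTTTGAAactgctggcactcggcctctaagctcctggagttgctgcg
The 6 letters occurred on either strand in 36 of 54 promoters of the G2 and M phase list found in the table (66.7%), in 6 of 45 promoters of the S phase list (13.3%) and in 20.2% of all 27025 promoters. A match is a description of these letters and not evidence of binding.

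S phase genes divided the libraries. All 61 genes of this list, which holds helicase subunits, polymerases and nucleotide synthesis enzymes, were measured. With dTAG13, 35 were at least 1.5-fold lower in low-mitotic cells and none was as much higher, where 5.59% of all measured genes were lower. With DMSO, none was lower by that much and 1 was higher, where 7.01% of all measured genes were lower and 1.81% higher. The list summed to 3650 CPM in low-mitotic cells and 5737 CPM in other cells with dTAG13, and to 6738 CPM in low-mitotic cells and 6571 CPM in other cells with DMSO. Median log2 ratios were -0.67 with dTAG13 (counting interval of the gene at the median -0.88 to -0.48) and 0.03 with DMSO (-0.21 to 0.26). The dTAG13 median was nearer 0 when cells were first thinned (-0.43) or chosen by the other 6 mitotic genes (-0.31).

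Tk1, the thymidine kinase of the salvage pathway, was at 10.1 CPM in low-mitotic cells and 35.5 CPM in other cells with dTAG13, a ratio of 0.284 (0.217 to 0.364). With DMSO it was at 64.6 CPM in low-mitotic cells and 62.2 CPM in other cells, a ratio of 1.04 (0.880 to 1.22). Its level in dTAG13 low-mitotic cells was thus the lowest of the 4, and the interval of the DMSO ratio included 1. Rrm2, the regulated subunit of ribonucleotide reductase, had ratios of 0.379 (0.345 to 0.415) with dTAG13 and 1.13 (1.03 to 1.25) with DMSO. Gmnn, which blocks relicensing of origins, had ratios of 0.422 with dTAG13 and 0.943 with DMSO. Pclaf, a partner of the sliding clamp PCNA that was chosen after its values were seen, had ratios of 0.259 with dTAG13 and 1.03 with DMSO.

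In the DMSO library, 36 of the 61 S phase genes had a ratio above 1. Dscc1, a subunit that helps load the sliding clamp, was at 33.8 CPM in low-mitotic cells and 20.7 CPM in other cells, a ratio of 1.63 (1.29 to 2.04) that led the DMSO genes by the naming rule. E2f8, an E2F family repressor, had a ratio of 1.42 (1.14 to 1.76), Gins2, a part of the replicative helicase, 1.36 (1.19 to 1.54), and Ccne2, an E-type cyclin, 1.38 (1.03 to 1.82). The same genes had dTAG13 ratios of 0.616, 0.454, 0.886 and 0.680, in that order. Cdc45, a helicase partner, and Orc1, a subunit of the origin recognition complex, both chosen after their values were seen, had DMSO ratios of 0.820 (0.589 to 1.11) and 0.903 (0.664 to 1.20). Serpine2, a secreted protease inhibitor, and Sdc4, a cell surface proteoglycan, were also among the 10 highest DMSO genes, with ratios of 1.64 and 1.44.

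The mini-chromosome maintenance genes Mcm3, Mcm5 and Mcm6, subunits of the ring that unwinds DNA, were less low than Tk1. Their dTAG13 ratios were 0.708, 0.681 and 0.817, and their DMSO ratios 1.03, 1.02 and 1.12. Their promoters are shown because replication genes are the classical E2F targets, with every E2F match in capitals, of which Mcm3 holds 2 apart and Mcm5 2 that overlap. Mcm3 is from the minus strand of chr1:20820263-20820333, Mcm5 from the plus strand of chr8:75109320-75109407 and Mcm6 from the minus strand of chr1:128359705-128359792, in the same RefSeq table and build.
Mcm3: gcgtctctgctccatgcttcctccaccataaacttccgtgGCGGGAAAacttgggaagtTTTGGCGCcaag
Mcm5: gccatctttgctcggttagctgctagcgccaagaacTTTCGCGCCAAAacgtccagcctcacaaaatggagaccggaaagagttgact
Mcm6: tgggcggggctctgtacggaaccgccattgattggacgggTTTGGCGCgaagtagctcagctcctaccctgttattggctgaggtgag
The letters searched were TTTGGCGC, TTTGCCGC, TTTCGCGC and TTTCCCGC on both strands, none of which contains or is contained in the CHR letters. They occurred in 16 of 45 S phase promoters (35.6%), in 3 of 54 G2 and M phase promoters (5.56%) and in 704 of 27025 promoters in all.

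Histone transcripts also divided the libraries. The list names 28 replication-dependent histone genes, of which 13 are found under these symbols. With dTAG13, 12 of 13 measured genes were at least 1.5-fold lower in low-mitotic cells, where 5.59% of all measured genes were, with a median log2 ratio of -1.51. With DMSO, none of 12 measured genes was lower by that much and 1, H2bc4, was higher, against 7.01% and 1.81% of all measured genes, with a median of 0.14. They summed to 644 CPM in low-mitotic cells and 2102 CPM in other cells with dTAG13, and to 1425 CPM in low-mitotic cells and 1282 CPM in other cells with DMSO. H2ac8 was at 52.3 CPM in low-mitotic cells and 210 CPM in other cells with dTAG13, a ratio of 0.249 (0.222 to 0.278). With DMSO it was at 200 CPM in low-mitotic cells and 161 CPM in other cells, a ratio of 1.24 (1.13 to 1.36). H1f5, a linker histone, had ratios of 0.282 with dTAG13 and 1.10 with DMSO. Most such transcripts lack a poly(A) tail, which a 3′ poly(A) library captures poorly, and their copies are near identical, so single-gene values are uncertain.

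**Figure D3:**
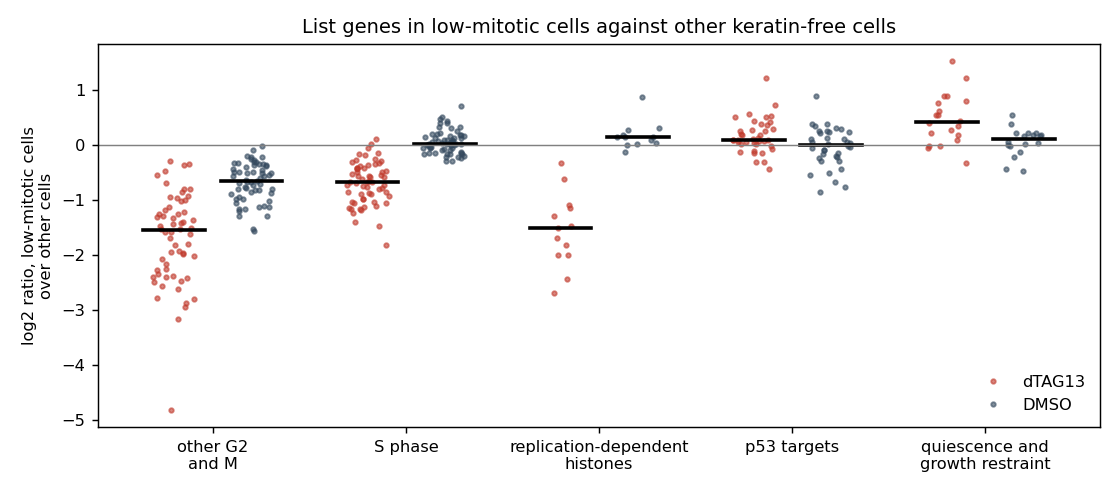
Each point is 1 measured gene of a list, at its log2 ratio of low-mitotic over other keratin-free cells of the same library (vertical axis); black bars are list medians. The S phase and histone medians lie at -0.67 and -1.51 with dTAG13 and at 0.03 and 0.14 with DMSO, while the G2 and M phase median is below 0 in both libraries.

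The contrast between the libraries lay at the low end of the range of mitotic UMIs. With dTAG13, the S phase list summed to 3222 CPM in cells with 0 mitotic UMIs, 4074 CPM with 1, 4935 CPM with 2, 6011 CPM with 3, 6474 CPM with 4 to 6, 6301 CPM with 7 to 12 and 5391 CPM with 13 or more. With DMSO it stayed between 6253 and 7086 CPM in all 7 classes and was at 6513 CPM in cells with 0 mitotic UMIs. Histone transcripts with dTAG13 were at 513 CPM in cells with 0 mitotic UMIs and peaked at 2865 CPM in cells with 7 to 12. With DMSO they were at 1230 CPM with 0 mitotic UMIs and peaked at 1652 CPM with 3, and were at 1450 CPM with 7 to 12. From 3 mitotic UMIs up, histone levels were thus higher with dTAG13 than with DMSO. The cells just inside and just outside the rule, with 1 and 2 mitotic UMIs, differed gradually, at 4074 and 4935 CPM of S phase transcripts with dTAG13 and 6813 and 6998 CPM with DMSO.

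**Figure D4:**
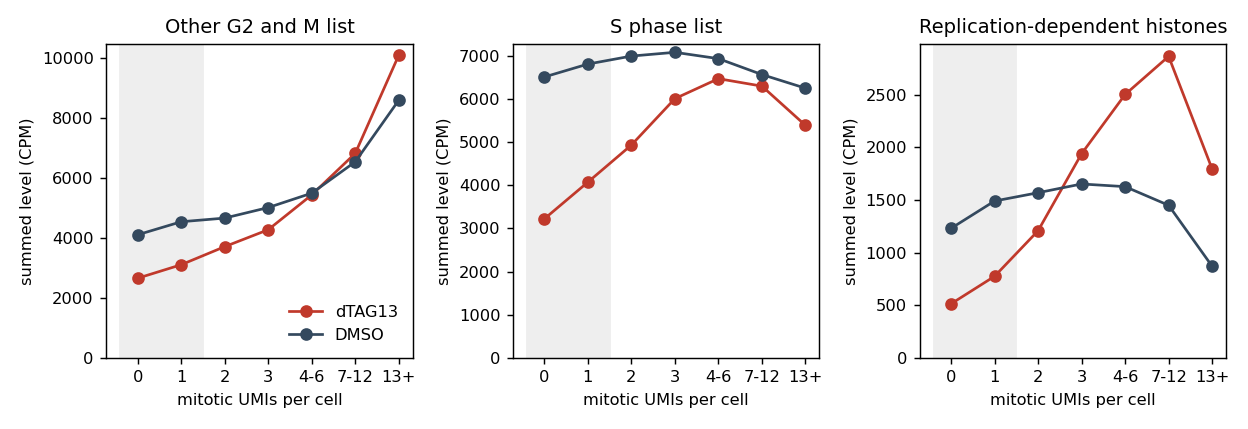
Summed level of 3 gene lists in CPM (vertical axes) in keratin-free cells grouped by mitotic UMIs per cell (horizontal axes). The grey band marks the low-mitotic cells. With dTAG13 the S phase and histone sums are lowest at 0 mitotic UMIs (3222 and 513 CPM), and with DMSO they are near the level of the neighbouring classes (6513 and 1230 CPM).

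Single cells at equal depth gave the same picture. After thinning to 4000 UMIs, dTAG13 low-mitotic cells held a median of 12 S phase UMIs and other dTAG13 cells 22, and DMSO low-mitotic cells held 27 and other DMSO cells 26. In the dTAG13 library, 57.2% of low-mitotic cells (54.3 to 60.1%) lay below the 10th percentile of the other cells, against 9.68% of the other cells themselves. In the DMSO library the figures were 9.77% of low-mitotic cells (7.27 to 12.8%) and 7.53% of other cells. Median histone UMIs were 1 in dTAG13 low-mitotic cells and 6 in other dTAG13 cells, against 5 in DMSO low-mitotic cells and 4 in other DMSO cells. The dTAG13 low-mitotic cells were therefore mostly, but not all, low in replication transcripts too.

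Clustering the low-mitotic cells within each library showed how they vary. Of 8 dTAG13 clusters, number 3, with 172 of 1139 cells (15.1%), had 6488 CPM of S phase and 1693 CPM of histone transcripts, with E2f8, Cdc6 and Fbxo5 among its leading genes. The other 7 had between 2355 and 3803 CPM of S phase transcripts and between 285 and 713 CPM of histone transcripts. All 7 DMSO clusters had between 6055 and 8188 CPM of S phase transcripts, and numbers 3 and 6 had 492 and 694 CPM of histone transcripts where the other 5 had between 1545 and 1996 CPM. The S phase level of dTAG13 cluster 3 thus fell within the DMSO range and that of the other dTAG13 clusters below it. Clusters carry no cell type name, and their genes are given as a description, since the same transcripts formed them.

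**Figure D5:**
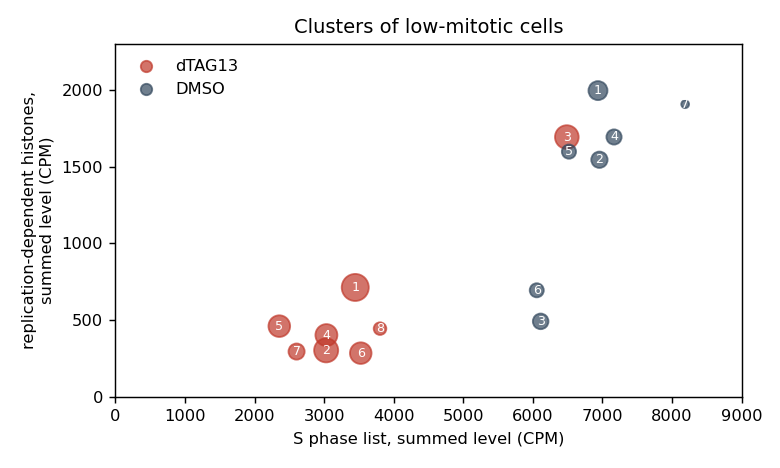
Clusters of low-mitotic cells, numbered within each library, by summed S phase transcripts (horizontal axis) and summed histone transcripts (vertical axis) in CPM; circle area grows with the number of cells. dTAG13 cluster 3, at 6488 and 1693 CPM, sits with the DMSO clusters, and the other 7 dTAG13 clusters sit at 3803 CPM of S phase transcripts or less.

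The dTAG13 clusters also differed in pluripotency and differentiation genes. Cluster 1 (225 cells) was led by Eif1ad15, Lefty1, Cdkn1c, Tagln and Dnmt3b, and cluster 2 (178 cells) by Ifitm1, Calcoco2, Spic and Nanog. Eif1ad15 had 26 UMIs in cluster 1. Of the 183 UMIs of the Eif1ad copies in all dTAG13 low-mitotic cells, 159 came from 5 cells, so this gene need not mark the cluster as a whole. Naive pluripotency transcripts summed to 7651 CPM in cluster 1, 12084 CPM in cluster 2 and 7952 CPM in cluster 5, which was led by Sct, S100a6, Dmkn and Wnt4. p53 target sums ran from 5384 CPM in cluster 3 to 7146 CPM in cluster 5. Among DMSO clusters, number 1 (111 cells) was led by Rhox6 and Rhox9, homeobox genes, and number 2 (82 cells) by Creld2 and Tcl1. DMSO cluster 3 was led by the Eif1ad copies, and 302 of the 309 UMIs of this family in DMSO low-mitotic cells came from 1 cell.

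G1 regulators leaned lower as a list with dTAG13 and, less clearly, with DMSO. With dTAG13, 1 of 21 measured cyclins, kinases and pocket proteins was at least 1.5-fold higher and 3 were lower. Of all measured genes 5.08% were higher and 5.59% lower. The median log2 ratio of the list was -0.21 (counting interval of the gene at the median -0.27 to -0.14), against 0.04 for all measured genes. A ratio above 1 was seen for 5 of the 21. With DMSO 1 of 20 was higher and 1 lower, against 1.81% and 7.01% of all measured genes, and 4 had a ratio above 1. The DMSO median was -0.21 against -0.08 for all measured genes, and its interval, -0.50 to 0.07, includes 0. Ccnd2, a D-type cyclin, was at 16.2 CPM in low-mitotic cells and 2.92 CPM in other cells with dTAG13, a ratio of 5.53 (4.29 to 7.09), and at 2.50 and 3.77 CPM with DMSO. Ccnd1, another D-type cyclin, had ratios of 0.707 (0.623 to 0.801) with dTAG13 and 0.734 (0.613 to 0.873) with DMSO, and Ccnd3 had 0.947 and 0.871. Of the CDK inhibitors, Cdkn1a, which encodes p21, was at 281 CPM in low-mitotic cells and 209 CPM in other cells with dTAG13, a ratio of 1.34 (1.28 to 1.41). With DMSO it was at 78.8 CPM in low-mitotic cells and 65.7 CPM in other cells, a ratio of 1.20 (1.03 to 1.39). Cdkn1b, which encodes p27, had ratios of 0.737 and 0.558 in the same order, and Cdkn1c, which encodes p57, had 1.40 and 1.21.

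p53 targets passed 1.5-fold in low-mitotic cells at about the share of all genes. With dTAG13, 2 of 39 measured targets were at least 1.5-fold higher in low-mitotic cells and none lower, where 5.08% of all measured genes were higher, with a median log2 ratio of 0.09. With DMSO 1 of 36 was higher and 3 lower, against 1.81% and 7.01% of all measured genes, with a median of 0.00. A ratio above 1 was seen for 30 of 39 targets with dTAG13 and for 18 of 36 with DMSO. The interval of the gene at the dTAG13 median, -0.13 to 0.31, includes 0. The list summed to 6150 CPM in low-mitotic cells and 5635 CPM in other cells with dTAG13, and to 3280 and 3138 CPM with DMSO. Mdm2, the p53 target that limits p53, was at 357 CPM in low-mitotic cells and 355 CPM in other cells with dTAG13, and at 46.3 and 44.8 CPM with DMSO. Its ratios of low-mitotic to other cells were 1.01 (0.963 to 1.05) with dTAG13 and 1.03 (0.847 to 1.25) with DMSO. The 2 higher targets with dTAG13 were Plk3, a stress-responsive kinase, with a ratio of 2.32 (2.0 to 2.68), and Sfn, which encodes 14-3-3σ and restrains entry into mitosis, with 1.65 (1.57 to 1.72). Their DMSO ratios were 0.941 (0.622 to 1.37) and 0.984 (0.888 to 1.09). Ddit4, an inhibitor of mTORC1 signalling, was higher in both libraries, with ratios of 1.48 with dTAG13 and 1.86 with DMSO.

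Some genes that restrain growth were higher in the dTAG13 low-mitotic cells. Of 20 measured genes of this list, 7 were at least 1.5-fold higher, where 5.08% of all measured genes were, and none lower. The median log2 ratio was 0.42 (counting interval of the middle genes 0.0045 to 0.81). With DMSO 0 of 18 passed 1.5-fold in either direction, where 1.81% of all measured genes were higher and 7.01% lower. The DMSO median was 0.10. Mxd4, a MAX partner that opposes MYC, was at 21.3 CPM in low-mitotic cells and 7.41 CPM in other cells with dTAG13, a ratio of 2.87 (2.35 to 3.49). With DMSO it was at 2.92 and 1.67 CPM, with an interval of the ratio of 0.692 to 3.69. Pnrc1, a nuclear receptor coactivator, had ratios of 2.34 (2.11 to 2.60) with dTAG13 and 1.17 (0.891 to 1.51) with DMSO. Pdcd4, an inhibitor of translation initiation, had ratios of 1.85 with dTAG13 and 1.14 with DMSO, and Ypel5 had 1.86 and 1.46.

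The 10 highest genes with dTAG13 were, by the naming rule, Prph, S100a6, Phlda1, Mxd4, Sct, Fgfbp1, Pnrc1, Plk3, Rian and Snhg11. S100a6, a small calcium-binding protein, was at 450 CPM in low-mitotic cells and 168 CPM in other cells, a ratio of 2.68 (2.57 to 2.80), and its DMSO ratio was 1.19 (1.02 to 1.38). Prph, an intermediate filament of neurons, was at 25.3 CPM in low-mitotic cells and 7.66 CPM in other cells, a ratio of 3.3 (2.74 to 3.96). Phlda1 had a ratio of 2.76 (2.48 to 3.06) with dTAG13 and 1.01 (0.533 to 1.74) with DMSO. Sct, the secretin hormone gene, was higher in both libraries, with ratios of 2.48 (2.30 to 2.66) with dTAG13 and 1.91 (1.35 to 2.64) with DMSO. None of these 10 genes was particular to keratin-free cells. All 10 were higher still in the dTAG13 cells with keratin UMIs and at most 1 mitotic UMI. There S100a6 was at 1111 CPM, Prph at 98.6 CPM and Sct at 554 CPM, against 145 CPM of Sct in low-mitotic cells. Over all measured genes, 447 of 8807 were at least 1.5-fold higher and 492 lower with dTAG13. With DMSO 152 of 8416 were higher and 590 lower, of which 5 and 105 reached 20 CPM.

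Core pluripotency transcripts were present in low-mitotic cells of both libraries. Pou5f1, the core factor OCT4, was at 592 CPM in low-mitotic cells and 524 CPM in other cells with dTAG13, and at 579 and 616 CPM with DMSO. Sox2 was at 362 and 353 CPM with dTAG13 and at 301 and 294 CPM with DMSO. Naive pluripotency genes leaned higher with dTAG13 and, less clearly, lower with DMSO. With dTAG13, 17 of 19 had a ratio above 1. Their median log2 ratio was 0.27 (counting interval of the gene at the median 0.12 to 0.41), against 0.04 for all measured genes. With DMSO 4 of 19 did, with a median of -0.20 against -0.08 for all measured genes. The DMSO interval, -0.44 to 0.03, includes 0, and shared pluripotency genes leaned the same way there, with 1 of 12 above 1. At 1.5-fold, 1 naive gene was higher with dTAG13 and none with DMSO, where 5.08% and 1.81% of all measured genes were. Nanog was at 103 CPM in low-mitotic cells and 78.0 CPM in other cells with dTAG13, a ratio of 1.32 (1.21 to 1.43), and at 75.1 and 87.4 CPM with DMSO, a ratio of 0.859 (0.737 to 0.996). Zfp57, a zinc finger protein that protects imprints, had ratios of 1.61 (1.46 to 1.76) with dTAG13 and 0.734 (0.614 to 0.870) with DMSO, and Tet2, a DNA demethylation enzyme, had 1.33 and 0.765.

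Some other lists leaned higher in the dTAG13 low-mitotic cells. Of 12 measured imprinted genes 4 were at least 1.5-fold higher with dTAG13 (median log2 ratio 0.31), against 0 of 11 with DMSO (-0.11), where 5.08% and 1.81% of all measured genes were. They included the noncoding RNAs Meg3, Rian and Mirg of a single imprinted cluster, with dTAG13 ratios of 1.89, 2.18 and 1.97 and DMSO ratios of 0.819, 0.927 and 0.832. Of 13 immediate early and AP-1 genes 6 were that much higher with dTAG13 (median 0.43), against the same 5.08% of all genes. Of 8 with DMSO none was higher and 1 was lower, against 1.81% and 7.01% of all measured genes. Klf6 and Dusp1 had ratios of 1.53 and 1.57 with dTAG13 and of 0.724 and 0.546 with DMSO. Of 22 lysosome and autophagy genes, 2 were 1.5-fold higher with dTAG13, where 5.08% of all measured genes were, and 21 had a ratio above 1. Of 21 measured with DMSO none was that much higher and 1 was lower, against 1.81% and 7.01% of all measured genes. Of these 21, 13 had a ratio above 1. Sqstm1, the autophagy receptor p62, was at 107 CPM in low-mitotic cells and 56.1 CPM in other cells with dTAG13, and at 45.9 and 43.0 CPM with DMSO. Id1 and Id3, targets of BMP signals, had dTAG13 ratios of 1.42 and 1.37 and DMSO ratios of 1.12 and 1.37. Ribosome biogenesis genes were slightly below the level of other cells, with a ratio above 1 for 8 of 44 with dTAG13 and 5 of 44 with DMSO. Medians were -0.10 with dTAG13 (-0.17 to -0.03) and -0.15 with DMSO (-0.28 to -0.03), against 0.04 and -0.08 for all measured genes. In neither library did any of the 44 pass 1.5-fold, where 5.59% of all measured genes were lower with dTAG13 and 7.01% with DMSO. Tex10 itself was at 64.9 CPM in low-mitotic cells and 66.4 CPM in other cells with dTAG13, and at 95.5 and 81.9 CPM with DMSO; loss of a degraded protein need not show in its mRNA.

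Markers of other cell types were summed over each list. The 15 fibroblast markers summed to 88.9 CPM in low-mitotic cells and 48.9 CPM in other cells with dTAG13, and to 35.0 and 31.4 CPM with DMSO. With dTAG13 only Tagln among them was measured (80.9 and 42.6 CPM), and Col3a1, Lum, Dcn and Postn were at 0 in both. Trophoblast markers summed to 237 and 196 CPM with dTAG13 and to 272 and 257 CPM with DMSO, neural ectoderm markers to 312 and 328 CPM and to 402 and 448 CPM, endoderm markers to 419 and 308 CPM and to 264 and 287 CPM, and primitive streak and mesoderm markers to 16.8 and 14.2 CPM and to 13.8 and 14.7 CPM. Id2 accounted for most of the trophoblast sum with dTAG13 (172 and 144 CPM), while Plac1 and Tpbpa were at 0 there. With DMSO Id2 was at 118 and 117 CPM, Rhox6 at 63.4 and 60.4 CPM and Rhox9 at 69.2 and 61.0 CPM. Stmn2 accounted for most of the neural ectoderm sum, at 203 and 228 CPM with dTAG13 and 350 and 379 CPM with DMSO, while Neurog2 and Dcx were at 0 in all 4. Sparc accounted for most of the endoderm sum with dTAG13 (302 and 194 CPM), while Foxa2 and Cer1 were at 0 there. Germ cell markers summed to 286 and 231 CPM with dTAG13 and to 217 and 204 CPM with DMSO. Formative pluripotency markers summed to 91.6 and 98.3 CPM with dTAG13 and to 94.7 and 102 CPM with DMSO. Blood markers summed to 5.44 and 4.44 CPM with dTAG13 and to 1.25 and 4.64 CPM with DMSO. The part of these cells in the differences above was not tested. Cells with 5 or more UMIs of 2-cell-like genes numbered 6 of 1139 low-mitotic and 35 of 7415 other cells with dTAG13, and 1 of 481 low-mitotic and 27 of 13817 other cells with DMSO. The libraries shared 64 barcodes, none of them held by a low-mitotic cell in both.

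Low-mitotic cells of the 2 libraries were also set directly against each other. Among 8940 measured genes, 27.1% were at least 1.5-fold higher with dTAG13 and 9.9% lower, against 12% higher and 5.5% lower among 8710 genes in other cells; the sums of low-mitotic cells hold fewer UMIs, and all-gene median log2 ratios were 0.20 and 0.08. S phase genes were lower by that much for 42 of 61 in low-mitotic cells (median -0.83) and for 6 of 61 in other cells (-0.15). Histone genes were lower for 10 of 12 in low-mitotic cells (median -1.07), whereas in other cells 7 of 13 were higher (0.66). G2 and M phase genes were lower for 38 of 60 in low-mitotic cells (median -0.71) and higher for 8 of 60 in other cells (0.23). p53 targets were higher for 32 of 40 in low-mitotic cells (median 1.49) and for 26 of 37 in other cells (1.19), and Mdm2 had dTAG13 over DMSO ratios of 7.71 (6.37 to 9.42) and 7.91. Growth restraint genes were higher for 12 of 20 in low-mitotic cells (median 0.89) and for 7 of 20 in other cells (0.44). The keratin-bearing cells with at most 1 mitotic UMI had S phase sums of 2617 CPM with dTAG13 and 6758 CPM with DMSO.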

How the data were processed

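Single-cell RNA libraries of J1 embryoid bodies, 1 with dTAG13 and 1 with DMSO, were analysed from the deposited matrices of whole-number UMI counts, written, per the file headers, by Cell Ranger 8.0.1. Seurat 5.0.1, R 4.3.2 and mm10 are named in the submitters' processing notes. Sources used here do not give the barcode filter applied earlier. Counts of symbols with 2 identifiers (26) were summed. Kept cells held 89065986 UMIs with dTAG13 and 111085151 with DMSO. No doublet caller was run, so doublets remain. UMIs of low-mitotic and of other cells were summed per library and scaled to a common total as CPM, computed here. Ratios have exact conditional binomial intervals, shares exact Clopper-Pearson intervals, CPM exact Poisson intervals (95%, counting error only). A gene was measured at 5 CPM in 1 or both sums. Cells were thinned with a fixed seed, and low-mitotic cells were clustered within each library (scanpy 1.11.5, 2000 variable genes, 20 components, 15 neighbours, leidenalg 0.10.2, resolution 0.8).

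Named genes are, per library, the 10 highest and 10 lowest by the interval bound nearest 1 among genes with at least 20 CPM and a UMI in at least 5% of cells, without predicted genes, genes of ribosomal proteins or mitochondria, and the genes of the rule. From each of 32 lists up to 4 genes with the largest log2 ratio in size at 10 CPM or more were added. Mdm2, Cdkn1a, Ccnd1, Ccnd2, Ccnd3, Cdk1, Pou5f1, Sox2, Nanog, Tex10 and the rule genes were always named; not all selected genes are described. Mcm3, Mcm5, Mcm6, H1f5, Ccnb2, Ccna2, Pclaf, Cdc45, Orc1 and the cluster genes were chosen after their values were seen. The low-mitotic cells and the lists were chosen with earlier results of these data known. The ratio calculation was tested on simulated data. The 12 alternatives tried are in the closing section.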

Additional observations from a re-analysis of the deposited data

Results flagged for a closer look

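For a pair of lists, the medians of low-mitotic over other keratin-free cells had opposite signs in the libraries and lay at least 0.5 apart on the log2 scale, over at least 5 measured genes in both. The S phase list had a median log2 ratio of -0.67 with dTAG13 and 0.0265 with DMSO, where the interval of the gene at the median, -0.21 to 0.26, includes 0 and the value was -0.02 against other cells weighted to the same depth. The replication-dependent histone list had medians of -1.51 with dTAG13 and 0.14 with DMSO. The difference between the libraries was not tested, because there is 1 library per group.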

How the results depend on the processing

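Of 96 values recomputed under 12 alternatives, 67 moved by less than the counting interval or 1.5 times, and 29 moved further. DMSO medians near 0 changed sign: p53 targets (-0.0027 as reported) ran from -0.03 to 0.35 and S phase (0.0265) from -0.02 to 0.14. Shares of low-mitotic cells with dTAG13 and DMSO were 6.78% and 0.853% with 0 mitotic UMIs allowed, 16.6% and 10.2% with 6 other mitotic genes, 1.71% and 0.127% at 8000 UMIs or more, and 19.5% and 7.89% after thinning. Genes 1.5-fold higher with dTAG13 numbered 1772 at 8000 UMIs (53 low-mitotic cells), 284 thinned and 127 at 20 CPM, and 65 were 2-fold higher. Genes lower with dTAG13 numbered 321 with 6 other genes, 1381 at 8000 UMIs and 248 at 20 CPM, and 220 were 2-fold lower. With DMSO, genes higher numbered 965 with 0 mitotic UMIs (122 cells), 60 with 6 other genes, 43 thinned and 5 at 20 CPM, and 28 were 2-fold higher; genes lower numbered 1386, 176, 230, 105 and 142 in the same order. The S phase median with dTAG13 was -0.31 with 6 other genes and -0.43 thinned. The DMSO p53 target median was 0.35 with 0 mitotic UMIs. The causes were not tested. At 8000 UMIs, 4 DMSO low-mitotic cells were left, too few for sums. Median-of-ratios scaling moved log2 ratios by 0.02 with dTAG13 and -0.05 with DMSO. No paired analysis was possible because there is 1 library per group. Depth limits ratios of genes with few UMIs.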
